A study of Homo sapiens with 16 samples.

Results

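The genes described here were 10 components of the NF-kappaB pathway: the DNA-binding factors NFKB1, NFKB2, RELA and RELB, the inhibitors NFKBIA, NFKBIB and NFKBIE that hold these factors in the cytoplasm, the feedback enzyme TNFAIP3, and the ubiquitin ligases BIRC2 and BIRC3. They were chosen by symbol from the 20531 entries of the table of estimated counts, and all 10 were listed there. LNCaP, a human prostate cancer cell line whose growth depends on androgen, was transfected with a nonsense control siRNA (NS) or with a pool of siRNAs against SLIRP. The study proposes that this RNA-binding protein is a coregulator of the androgen receptor that, depending on context, behaves as a corepressor. The cells were then held in serum-free medium with ethanol vehicle (Veh) or 1 nM dihydrotestosterone (DHT), and RNA was sequenced from 4 libraries of each combination, which the labels and the text below call SLIRP-Veh, SLIRP-1nM DHT, NS-Veh and NS-1nM DHT. All 16 libraries came from cells that had received an siRNA, so no untransfected cells stand beside them. The question asked of these genes was whether they differed between the siRNAs along with the interferon-stimulated genes, since both sets answer to double-stranded RNA.

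Double-stranded RNA in the cytoplasm is bound by RIG-I-like receptors, which signal through the mitochondrial protein MAVS. From MAVS the signal divides into an arm that activates IRF3 and IRF7 through the kinase TBK1 and induces interferon, and an arm that activates the IkappaB kinases and releases NF-kappaB, mostly a dimer of RelA and the p50 product of NFKB1. NF-kappaB in turn induces several of its own inhibitors and partners, among them NFKBIA, TNFAIP3 and BIRC3, so their mRNA levels are often read as a record of its activity, while BIRC2 and BIRC3 attach ubiquitin at TNF receptor complexes and keep the kinase of the noncanonical pathway low in resting cells.

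The libraries held between 436353 and 1689708 counts, and the smallest were NS-Veh replicates 1 and 2. A floor of 3 counts was worth between 1.78 and 6.95 CPM (counts relative to the scaled size of the library) in a library, for counting error only. SLIRP mRNA, listed as C14orf156, lay between 45.1 and 63.4 CPM in the 8 NS libraries and between 1.41 and 8.04 CPM in the 8 SLIRP siRNA libraries, so each library matched its siRNA label. All 9 luminal prostate markers looked for were above 0 in every library, and their summed level was 5758 to 7019 CPM with NS and 3868 to 4145 CPM with SLIRP siRNA. Most of the lower sum lay in STEAP2, at 2501 and 1140 CPM, and FOLH1, at 1960 and 1230 CPM, while KLK3 (164 and 235 CPM), KLK2 (15.3 and 29.9 CPM) and TMPRSS2 (134 and 185 CPM) had higher means with SLIRP siRNA. Over 16 libraries 5 of the 9 fell and 0 rose by edgeR, with 6 at an unadjusted p under 0.05. With treatment as a covariate 5 fell and 3 rose. Within vehicle 5 fell and 1 rose, and within DHT 5 fell and 3 rose. Among all genes tested, 17.8% were called higher and 17.4% lower over 16 libraries, 11.8% and 9.95% in vehicle, and 12.8% and 11.6% in DHT. Of 13 markers of leukocytes, fibroblasts, endothelium and basal epithelium, 6 were at 0 in every library (PTPRC, CD3E, DCN, PECAM1, KRT5 and TP63), and the summed level of all 13 was 29.4 to 43.5 CPM with NS and 20.1 to 36.8 CPM with SLIRP siRNA. The part of these marker differences in the results below was not tested, and in bulk RNA fewer cells of a kind and less RNA per cell cannot be told apart.

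The 10 genes were expressed at very unequal levels. Per kilobase of canonical transcript, NFKBIA, which encodes IkappaBalpha, averaged 32.5 CPM in the 8 NS libraries (range 23.8 to 38.1), RELA 32.0 CPM (23.9 to 36.9) and NFKB1 29.7 CPM (26.1 to 37), and these ranges overlapped. BIRC2 followed at 18.3 CPM per kilobase (15.4 to 20.6), apart from its neighbours on either side. NFKB2, the precursor of p52, averaged 10.3 CPM per kilobase (7.46 to 12.3) and NFKBIB, which encodes IkappaBbeta, 10.1 (3.36 to 13.9). The lowest levels per kilobase were those of NFKBIE at 2.99 CPM, BIRC3 at 1.74 CPM, TNFAIP3 at 1.11 CPM and RELB, the partner of p52, at 1.02 CPM, and the last 3 had overlapping ranges. The range of NFKBIE (2.30 to 3.96) overlapped those of BIRC3 (up to 2.59) and RELB (up to 3.08) as well.

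In the GENCODE annotation on hg19, BIRC3 (chr11:102188215-102210134) and BIRC2 (chr11:102217942-102249401) lie in the same direction on the forward strand, with 7807 bases between them. Of the 50-base words in their transcripts, 11 were shared between these genes, which is 0.225% of the words of BIRC2 and 0.144% of those of BIRC3. NFKBIB overlaps the protein-coding gene SIRT2 on the opposite strand, RELA, TNFAIP3 and BIRC3 each overlap a long noncoding RNA on the opposite strand (RELA-DT, WAKMAR2 and a transcript without a symbol), and a miRNA locus lies opposite NFKB1. Whether the counting used strand is not given in the sources used here, so reads from these partners cannot be told apart from those of the members. No overlap was found at the loci of NFKB2, RELB, NFKBIA, NFKBIE and BIRC2.

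The promoter windows of RefSeq, which run from 250 bases before to 50 bases after an annotated start, covered 8 of the 10 genes with 14 windows, and NFKBIE and RELB were without an entry. Each window was found once in the stretch of hg19 searched, the gene with 20000 bases on either side. A kappaB word, GGGNNNTTCC on either strand, was present in 7 windows of 6 genes, against 6.52% of 35116 RefSeq promoters. Shown are 4 windows, those of the called member (BIRC2) and of its neighbour BIRC3, and those of the best-known target of the pathway (NFKBIA) and of the p50 gene (NFKB1), with the kappaB word in capitals where it occurs.
NFKB1, chr4:103422266-103422565, forward strand: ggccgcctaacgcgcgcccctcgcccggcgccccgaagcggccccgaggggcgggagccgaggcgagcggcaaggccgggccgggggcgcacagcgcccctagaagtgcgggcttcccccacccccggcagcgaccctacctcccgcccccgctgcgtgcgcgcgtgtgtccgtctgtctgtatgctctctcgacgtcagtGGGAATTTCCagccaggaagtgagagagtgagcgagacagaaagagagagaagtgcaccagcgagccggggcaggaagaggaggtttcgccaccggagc
NFKBIA, chr14:35873906-35874205, reverse strand: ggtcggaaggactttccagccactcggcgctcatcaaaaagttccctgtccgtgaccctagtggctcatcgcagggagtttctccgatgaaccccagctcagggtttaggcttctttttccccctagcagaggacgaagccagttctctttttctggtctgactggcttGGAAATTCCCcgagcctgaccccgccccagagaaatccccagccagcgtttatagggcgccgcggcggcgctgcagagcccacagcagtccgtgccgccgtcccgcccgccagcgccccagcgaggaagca
BIRC3, chr11:102187965-102188264, forward strand: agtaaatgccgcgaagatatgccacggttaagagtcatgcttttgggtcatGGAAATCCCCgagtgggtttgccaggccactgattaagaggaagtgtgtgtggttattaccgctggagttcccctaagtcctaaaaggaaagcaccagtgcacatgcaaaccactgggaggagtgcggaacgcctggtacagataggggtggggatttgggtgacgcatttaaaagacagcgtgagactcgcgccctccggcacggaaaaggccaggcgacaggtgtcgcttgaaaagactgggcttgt
BIRC2, chr11:102217695-102217994, forward strand: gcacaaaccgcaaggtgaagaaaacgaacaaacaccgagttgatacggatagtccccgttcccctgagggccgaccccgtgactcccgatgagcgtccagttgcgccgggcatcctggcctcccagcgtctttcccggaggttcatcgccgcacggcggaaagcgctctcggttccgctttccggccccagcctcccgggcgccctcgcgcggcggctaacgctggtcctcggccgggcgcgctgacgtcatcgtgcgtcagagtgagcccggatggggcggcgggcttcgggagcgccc
In the window of NFKB1 shown, the word GGGAATTTCC began at position -49, counted from the annotated start. The window at the downstream start of NFKB1 held no such word. The window of NFKBIA held GGAAATTCCC, the same pattern read on the other strand, at -81, and that of BIRC3 held GGAAATCCCC at -199. Neither of the 2 windows of BIRC2 nor either of the 2 of RELA held the word. TNFAIP3 had 2 kappaB words in its window, NFKB2 had 3 over its 3 windows, and NFKBIB had 2 that overlap. The interferon word GAAANNGAAA, found in 3.57% of all promoters, was present in 1 of the 14 windows, the upstream start of RELA. Such matches describe letters in these windows and say nothing of binding.

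**Figure D1:**
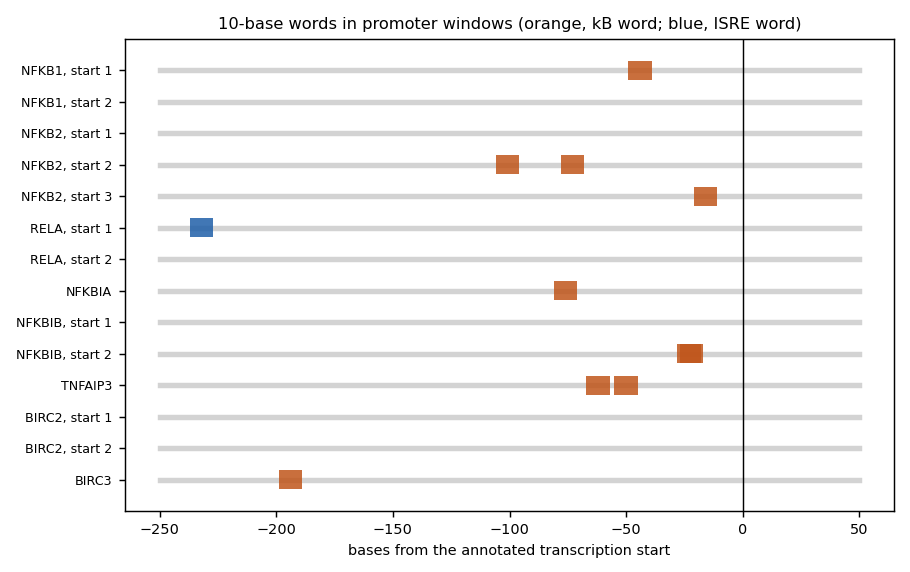
Positions of the kappaB word (orange) and the interferon word (blue) in the 14 RefSeq promoter windows of 8 members, in bases from the annotated start on the horizontal axis (grey bars are the windows, the line at 0 is the start). A kappaB word lies in 7 windows of 6 genes and in no window of BIRC2 or RELA.

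In the comparison of the 8 SLIRP siRNA libraries with the 8 NS libraries, BIRC2 fell to 0.673-fold of its control level. For NFKB1, RELA, NFKB2 and NFKBIA, the well-measured factors and inhibitor, the 95% intervals of the fold change lay between 0.848 and 1.34, and none of them passed the test. Of the 7 members with enough counts to be tested, 0 rose and 1 fell at an FDR of 0.01 (edgeR quasi-likelihood test, Benjamini-Hochberg adjustment over 10167 genes). Among all genes tested in that comparison 35.2% were called, 17.8% higher and 17.4% lower, so 1 of 7 is no excess over the background. The median log2 fold change of the 7 members was -0.03, against -0.01 over all genes tested.

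NFKB1 encodes p105 and its product p50. Its level was 109 to 150 CPM in NS-Veh and 106 to 124 CPM in NS-1nM DHT, against 109 to 129 CPM in SLIRP-Veh and 98.1 to 143 CPM in SLIRP-1nM DHT. The 4 ranges overlapped, and the log2 fold change of SLIRP siRNA over NS was -0.03 (SE 0.09, 95% interval -0.20 to 0.15, FDR 0.829). RELA, the transactivating subunit, lay between 60.3 and 92.9 CPM with NS and between 70.0 and 91.7 CPM with SLIRP siRNA, a log2 fold change of -0.05 (SE 0.09, interval -0.24 to 0.13, FDR 0.675). The fold change intervals of these factors together spanned 0.848 to 1.11. NFKB2 ranged from 22.5 to 37.1 CPM with NS and from 24.2 to 39.4 CPM with SLIRP siRNA, with a log2 fold change of 0.16 (SE 0.13, interval -0.11 to 0.42, FDR 0.338), an interval that reaches a 1.34-fold rise.

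NFKBIA was measured at 54.0, 37.1, 52.2 and 53.8 CPM in NS-Veh replicates 1 to 4, and at 51.4, 59.4, 52.3 and 45.3 CPM in NS-1nM DHT. The SLIRP-Veh libraries gave 56.2, 53.2, 59.2 and 54.3 CPM and the SLIRP-1nM DHT libraries 65.2, 50.8, 53.4 and 47.5 CPM. The ranges of the 4 groups overlapped, and NS-Veh replicate 2, on 16 counts, was the lowest of the 16 libraries. The log2 fold change over 16 libraries was 0.09 (SE 0.10, interval -0.12 to 0.30, FDR 0.541), an interval of 0.917 to 1.23-fold. NFKBIB ranged from 4.00 to 16.5 CPM with NS (2 to 22 counts) and from 7.77 to 22.9 CPM with SLIRP siRNA (8 to 24 counts), and its log2 fold change of 0.10 had an interval of -0.35 to 0.56 (FDR 0.736).

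BIRC2, also known as cIAP1, stood at 68.0, 69.5, 67.4 and 77.1 CPM in NS-Veh and at 77.6, 57.8, 74.0 and 58.5 CPM in NS-1nM DHT. With SLIRP siRNA it stood at 52.1, 42.3, 36.3 and 56.1 CPM in vehicle and at 52.2, 33.8, 43.7 and 45.0 CPM in DHT. Every SLIRP siRNA library was below every NS library, although the gap between the groups, 56.1 against 57.8 CPM, was narrow. Over all genes tested, 15.2% had groups that did not overlap. Means were 70.5 ± 4.47 and 67.0 ± 10.3 CPM (SD, n = 4) in NS-Veh and NS-1nM DHT, and 46.7 ± 9.03 and 43.7 ± 7.54 CPM in SLIRP-Veh and SLIRP-1nM DHT. The log2 fold change over 16 libraries was -0.57 (SE 0.11, interval -0.80 to -0.34, FDR 9.24e-05), which is 0.673-fold with an interval of 0.574 to 0.788. Across 17 alternative analyses it stayed between -0.64 and -0.49, and passed the FDR in 16 of them. The exception used only replicates 1 and 2, where the FDR was 0.0217.

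BIRC3, also known as cIAP2, had 3 to 21 counts in an NS library and 2 to 15 in a SLIRP siRNA library. It was at 16, 6.95, 7.93 and 11.2 CPM in NS-Veh and at 17.8, 16.2, 9.58 and 10.2 CPM in NS-1nM DHT. The SLIRP-Veh libraries held 8.29, 6.26, 2.69 and 5.26 CPM, and the SLIRP-1nM DHT libraries 11.7, 21.2, 7.77 and 2.41 CPM, so the groups overlapped and replicate 2 of the last group was the highest of all 16. The log2 fold change was -0.62 (SE 0.31, interval -1.24 to 0.01, FDR 0.0988) and did not pass the test. Its estimate was close to that of BIRC2, with a wider error.

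**Figure D2:**
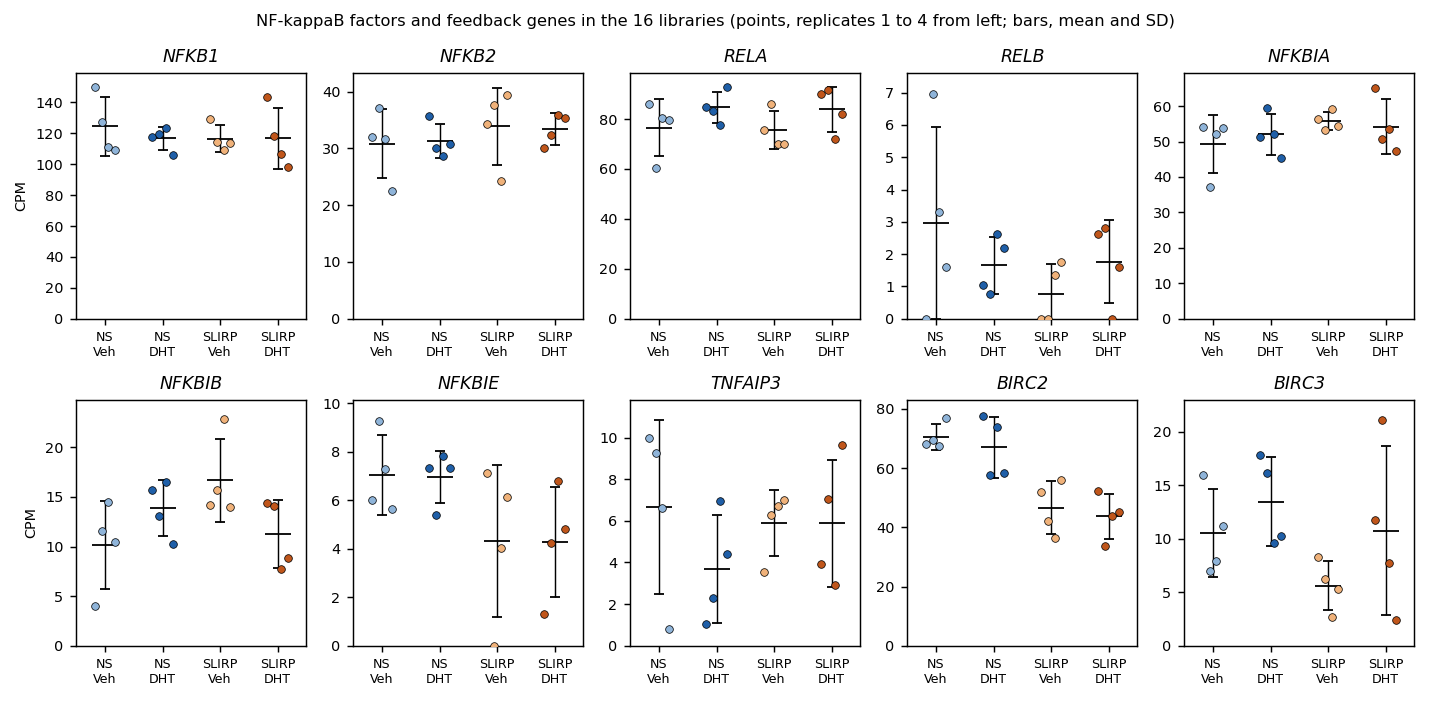
Level of each of the 10 genes in CPM (vertical axes start at 0) in the 4 groups of 4 libraries. Points are libraries with replicates 1 to 4 from left to right, horizontal bars are means and vertical bars SD, cut at 0 for RELB. BIRC2 is the gene whose 8 SLIRP siRNA libraries, 33.8 to 56.1 CPM, all lie under its 8 NS libraries, 57.8 to 77.6 CPM.

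The remaining 3 members had too few counts for the test. RELB had 0 to 5 counts in a library, 18 in the 8 NS libraries together and 9 in the 8 SLIRP siRNA libraries, at 0.00 to 6.95 and 0.00 to 2.82 CPM. TNFAIP3, which encodes the deubiquitinase A20, had 1 to 12 counts, with sums of 38 and 46, and its CPM ranges of 0.803 to 10.01 and 2.91 to 9.65 overlapped. NFKBIE had 0 to 12 counts, with sums of 58 and 39, and lay at 5.4 to 9.27 CPM with NS and 0.00 to 7.10 CPM with SLIRP siRNA. The ranges of RELB and NFKBIE overlapped as well. With the low-count filter removed, the log2 fold changes were -0.82 for RELB (SE 0.59), 0.35 for TNFAIP3 (SE 0.38) and -0.50 for NFKBIE (SE 0.34), none of which passed an FDR of 0.01. Their 95% intervals were -2.01 to 0.37, -0.42 to 1.12 and -1.18 to 0.17. For RELB and NFKBIE a fall of 2-fold and for TNFAIP3 a rise of 2-fold lay inside the interval, and these differences were not detectable at this depth.

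Within each hormone condition the same gene was called. In vehicle 1 of 7 members fell and 0 rose, against 21.7% of 10684 genes called (11.8% higher, 9.95% lower), and in DHT 1 of 7 fell and 0 rose, against 24.4% (12.8% higher, 11.6% lower). BIRC2 had a log2 fold change of -0.55 in vehicle (SE 0.16, interval -0.87 to -0.23, FDR 0.00625) and of -0.59 in DHT (SE 0.16, interval -0.91 to -0.27, FDR 0.00301), and its groups of 4 did not overlap in either, as for 29.3% of genes in vehicle and 32.2% in DHT. With 4 libraries a side these calls were near the threshold. In vehicle the FDR was 0.0136 by DESeq2, 0.0119 and 0.0131 by limma on the normalized table with pseudocounts of 1 and 0.1, 0.0116, 0.0169, 0.0452 and 0.0272 without replicates 1, 2, 3 and 4, and 0.0142 without the small NS-Veh replicates 1 and 2, so no member was called in those analyses. In DHT it was 0.0120, 0.0125 and 0.0399 without replicates 1, 2 and 3, while DESeq2 and limma each called BIRC2. The fold change itself stayed between -0.63 and -0.52 in vehicle and between -0.68 and -0.52 in DHT.

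The intervals of the other tested members included 0 in both conditions. NFKBIA had log2 fold changes of 0.13 in vehicle (interval -0.18 to 0.45) and 0.04 in DHT (interval -0.26 to 0.34). BIRC3 was estimated at -0.73 in vehicle (SE 0.46, FDR 0.236) and at -0.46 in DHT (SE 0.39, FDR 0.383), where leaving out a replicate number gave -0.85 to -0.14. NFKBIB was the member whose estimates had opposite signs, 0.53 in vehicle (SE 0.32, FDR 0.211) and -0.34 in DHT (SE 0.32, FDR 0.429), and neither was called. Leaving out a replicate number gave it 0.46 to 0.65 in vehicle and -0.48 to -0.08 in DHT.

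**Figure D3:**
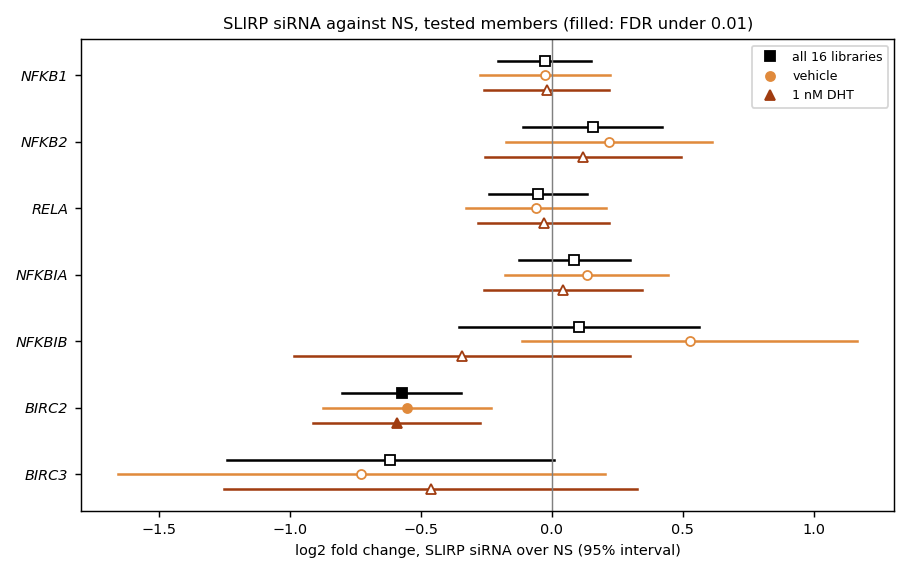
Log2 fold change of SLIRP siRNA over NS with its 95% interval for the 7 tested members, over all 16 libraries (black squares), in vehicle (orange circles) and in 1 nM DHT (brown triangles), filled where the FDR is under 0.01. BIRC2 is filled in all 3 rows, and the intervals of the others reach 0.

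No tested member passed the test for DHT. In the 8 NS libraries 0 rose and 0 fell, against 1.31% of 10367 genes called (0.849% higher, 0.463% lower), 0 had an unadjusted p under 0.05, and DESeq2 and limma also called 0. The estimates for NS-1nM DHT over NS-Veh ran from -0.11 for BIRC2 (SE 0.14) to 0.38 for BIRC3 (SE 0.32), with a median of 0.07. NFKBIA was at 52.1 ± 5.75 CPM in NS-1nM DHT and 49.3 ± 8.17 CPM in NS-Veh (SD, n = 4), a log2 fold change of 0.03 (interval -0.29 to 0.34), and NFKB1 at 117 ± 7.55 and 124 ± 19.0 CPM.

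In SLIRP siRNA cells the same comparison again called 0 of 7 members, against 1.17% of genes (0.636% higher, 0.534% lower), with 0 at an unadjusted p under 0.05 and 0 by DESeq2 and limma. Estimates ran from -0.58 for NFKBIB (SE 0.32, FDR 0.386) to 0.65 for BIRC3 (SE 0.46, FDR 0.532). BIRC3 had 5.62 ± 2.33 CPM in SLIRP-Veh and 10.8 ± 7.91 CPM in SLIRP-1nM DHT, and replicate 2 of the latter at 21.2 CPM stood far from the lowest at 2.41 CPM.

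The difference in DHT response between the siRNAs was tested directly and called 0 of 7 members, with 0 at an unadjusted p under 0.05 and 0 by DESeq2 and limma, and 0.0% of the 10684 genes. BIRC2 had a difference of -0.04 (SE 0.22, interval -0.49 to 0.41). The largest estimate belonged to NFKBIB, -0.87 on the log2 scale (SE 0.45, interval -1.78 to 0.04, FDR 1.0). Its levels were 10.1 ± 4.44 CPM in NS-Veh and 13.9 ± 2.85 CPM in NS-1nM DHT, and 16.7 ± 4.19 CPM in SLIRP-Veh and 11.3 ± 3.45 CPM in SLIRP-1nM DHT (SD, n = 4), where NS-Veh replicate 1 rested on 2 counts.

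**Figure D4:**
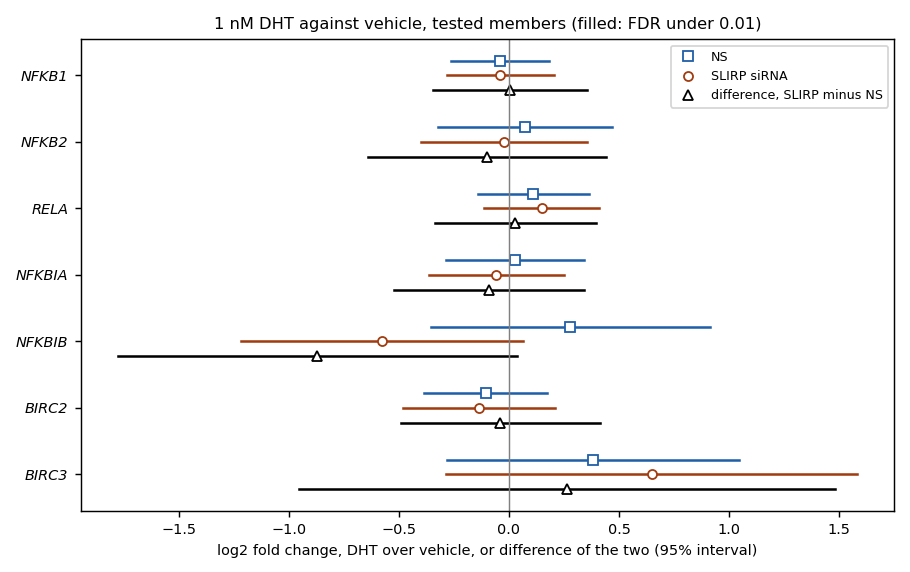
Log2 fold change of 1 nM DHT over vehicle with its 95% interval for the 7 tested members in NS cells (blue squares) and SLIRP siRNA cells (brown circles), and the difference between those responses (black triangles). Every interval reaches across 0, and the widest are those of NFKBIB and BIRC3.

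Other genes of the pathway were counted over lists chosen for their role. Of 6 remaining REL and IkappaB family genes, 2 passed the low-count filter and 0 were called over the 16 libraries by edgeR, DESeq2 or limma, with 1 at an unadjusted p under 0.05 (NFKBIL1, -0.46, SE 0.22, FDR 0.0876). Among 37 receptors, adaptors and kinases upstream of NF-kappaB, 30 were tested, 2 rose, 11 fell and 17 did not pass, with a median log2 fold change of -0.20. Without replicate 3 the number that fell was 5 and the median -0.03. The largest falls were those of RNF31, the catalytic subunit of the linear ubiquitin ligase, at 43.6 ± 7.67 CPM with NS and 25.3 ± 4.41 CPM with SLIRP siRNA (SD, n = 8, log2 fold change -0.78, SE 0.14), and of BCL10, an adaptor of the CARD-MALT1 complex, at 53.0 ± 8.85 and 32.6 ± 3.27 CPM (-0.69, SE 0.12). The 2 that rose were IL1R1, an interleukin receptor, from 59.3 ± 9.36 to 95.1 ± 12.5 CPM (0.69, SE 0.11), and UBE2N, the E2 enzyme that builds signalling ubiquitin chains, from 129 ± 16.8 to 203 ± 30.2 CPM (0.63, SE 0.09). Among all genes, 17.4% were called lower and 17.8% higher.

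BIRC2 works in a complex with TRAF2 and TRAF3 that marks the kinase MAP3K14 (NIK) for degradation, and these partners are given here although they were picked after their values were seen. TRAF3 fell from 46.9 ± 7.53 CPM with NS to 34.4 ± 5.60 CPM with SLIRP siRNA (log2 fold change -0.42, SE 0.13, FDR 0.00647), and the call was lost without any one replicate number (FDR 0.0164, 0.0531, 0.0443 and 0.0116 without replicates 1 to 4), with the replicate block (0.0102), with DESeq2 (0.0119), without the low-count filter (0.0134), with only replicates 1 and 2 (0.0549) or only 3 and 4 (0.128), and without NS-Veh replicates 1 and 2 (0.0218). TRAF2 was at 16.9 ± 5.79 and 22 ± 5.0 CPM (0.44, SE 0.20, FDR 0.0704), and MAP3K14 at 11.1 ± 5.48 and 15.8 ± 4.21 CPM (0.38, SE 0.24, FDR 0.200), neither of them past the test. The 3 subunits of the IkappaB kinase, CHUK, IKBKB and IKBKG, had log2 fold changes of -0.03, 0.12 and -0.30 and were not called. NFKB2, whose processing NIK controls at the protein level, is described above by its mRNA alone.

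Of 19 further negative regulators, 18 were tested, 3 rose and 3 fell, against 17.8% called higher and 17.4% lower among all genes tested. ZC3H12A, the RNase regnase-1 that degrades inflammatory mRNAs, fell from 41.8 ± 6.75 to 22.9 ± 6.41 CPM (log2 fold change -0.87, SE 0.16), RNF11, a subunit of the A20 ubiquitin-editing complex, fell from 338 ± 28.5 to 213 ± 15.4 CPM (-0.65, SE 0.07), and USP21 fell by 0.57 on the log2 scale (SE 0.16), a call lost without replicate 2, 3 or 4 (FDR 0.0122, 0.0456 and 0.0427), with DESeq2 (0.0119), without the low-count filter (0.0137), and with only replicates 1 and 2 (0.281) or only 3 and 4 (0.0208). CYLD, a deubiquitinase of the same pathway, rose from 31.6 ± 7.62 to 51.5 ± 11.5 CPM (0.73, SE 0.15), with an FDR of 0.0251 with only replicates 1 and 2. Without replicate 2, and also without replicate 3, 1 of this list rose and 2 fell.

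Most NF-kappaB target genes had few counts. Of 41 listed, 32 were below the filter, 11 of them at 0 in every library, IL6 and TNF included, and the highest count of any of the 32 in a library was 17. The 9 tested gave 0 rises and 2 falls, BCL2L1, an anti-apoptotic BCL2 family member, from 133 ± 11.7 to 81.2 ± 18.1 CPM (log2 fold change -0.67, SE 0.10) and EFNA1, an ephrin ligand, from 53.5 ± 8.21 to 39.9 ± 9.36 CPM (-0.44, SE 0.13), and the median of the 9 was 0.02. Among all genes tested, 17.8% were called higher and 17.4% lower. Of the 9, 6 had an unadjusted p under 0.05 by edgeR. Their estimates were higher for SOD2 (0.30, FDR 0.0168), TNFAIP8 (0.42, FDR 0.0840) and CCND1 (0.15, FDR 0.0337). They were lower for CFLAR (-0.43, FDR 0.0123), BCL2L1 and EFNA1. DESeq2 called 1 higher (CCND1) where limma called 0. The call of EFNA1 was lost without replicate 1, 2 or 3 (FDR 0.0475, 0.0213 and 0.0726), with limma (0.0167 and 0.0186 with pseudocounts of 1 and 0.1), and with only replicates 1 and 2 (0.0536) or only 3 and 4 (0.124), and lay at the threshold without the low-count filter. Without replicate 2, and also without replicate 3, 1 of the 9 fell. Over the 32 genes below the filter, counts not scaled for library size summed to 252 in the NS libraries and 195 in the SLIRP siRNA libraries. Those sums include the chemokines CCL5, with 57 and 9 counts, and CXCL10, with 22 and 6, both named after their values were seen. Together these chemokines fell by more than the sums differ. Both are induced by interferon regulatory factors as well as by NF-kappaB, and which of these bears on their counts here was not tested.

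The interferon-stimulated genes were mostly lower with SLIRP siRNA in the same libraries. Of 40 interferon-stimulated genes 26 were tested, 24 fell, 1 rose (STAT2, 0.37, SE 0.10, a call lost without replicate 1, 2 or 3, with FDR 0.0167, 0.0123 and 0.0140, and with limma at a pseudocount of 1, 0.0108) and the median log2 fold change was -2.30, although the genes that passed the filter only through the NS libraries had to differ. OASL, an OAS family protein, fell from 94.6 ± 31.9 to 2.62 ± 1.93 CPM, with a SLIRP siRNA library at 0, and IFIT1, which binds foreign RNA ends, from 110 ± 32.5 to 5.55 ± 1.54 CPM (SD, n = 8). RSAD2 and IFITM1, both antiviral effectors, fell from 32.9 ± 13.3 to 1.22 ± 1.31 CPM and from 40.3 ± 8.43 to 2.34 ± 1.48 CPM. Their SLIRP siRNA libraries lay at 0.00 to 3.55 and 0.00 to 4.02 CPM, around the worth of 3 counts, so no fold is given for them. With at least 10 counts required in every library, 9 of these genes were tested and 8 fell, with a median of -0.96. The RNA sensing list held 14 genes that sense RNA or relay its signal, TBK1 and other members of the interferon arm included. Of these, 10 were tested, 1 rose and 1 fell, and 5 had an unadjusted p under 0.05 by edgeR. Apart from the called genes, IFIH1 (-0.48, FDR 0.0197) and EIF2AK2 (-0.34, FDR 0.0114) were lower and RNF135 (0.53, FDR 0.0234) was higher. The number that fell was 2 without replicate 1, with upper-quartile scaling, without the low-count filter or with treatment as a covariate. The shares over all genes tested were 17.8% higher and 17.4% lower. DDX58, which encodes RIG-I and is itself induced by interferon, fell from 76.1 ± 19.1 to 28.0 ± 4.59 CPM (-1.42, SE 0.15), and TBK1 rose from 70.1 ± 8.66 to 91.9 ± 20.04 CPM (0.38, SE 0.12), a call lost with limma, without NS-Veh replicates 1 and 2, and without replicate 2, 3 or 4 (FDR 0.0283, 0.0233 and 0.0321). With only replicates 1 and 2 or only 3 and 4, neither TBK1 (FDR 0.144 and 0.0254) nor STAT2 (0.0532 and 0.0565) was called.

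**Figure D5:**
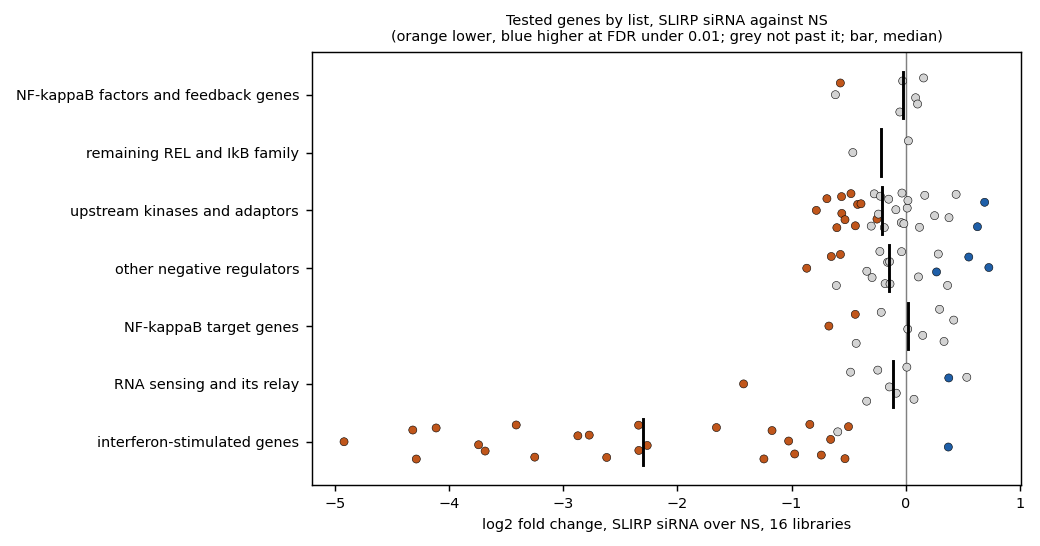
Log2 fold change of SLIRP siRNA over NS over 16 libraries (horizontal axis) for each tested gene of the 10 members and of the 6 lists. Orange points are lower and blue points higher at an FDR under 0.01, grey points did not pass, and black bars are medians, at -0.03 for the members. The median of the interferon-stimulated genes is -2.30 over 26 genes, several of which passed the filter only through the NS libraries, and -0.96 over the 9 with at least 10 counts in every library.

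The genes whose log2 CPM followed that of BIRC2 most closely over the 16 libraries, out of 2695 genes whose mean count reached 100, were C19orf63 (Pearson r 0.909), ITGAV, an integrin subunit (0.898), and ABCA2, a lipid transporter (0.895). Within the 8 NS libraries alone the coefficients were -0.05, 0.482 and 0.301, and within the 8 SLIRP siRNA libraries 0.869, 0.660 and 0.720. The 16 points share their division into 2 siRNA groups, and all 3 genes were lower with SLIRP siRNA (log2 fold changes -0.88, -0.87 and -0.64).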

How the data were processed

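LNCaP RNA was sequenced as single reads, which the authors aligned to hg19 and summarised as estimated counts per gene, deposited as whole numbers. CASAVA and RSEM are named in the submitters' processing notes, and the annotation and strand setting are not given in the sources used here. The authors also deposited a normalized table, a score in which estimated counts were divided by the library's upper quartile and multiplied by 1000, which was used for limma alone. Of the 20531 entries, 29 have a gene identifier without a symbol (0.0305 to 0.0420% of the counts of a library) and were kept in totals and tests.

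Estimated counts were analysed with edgeR 4.0.16 in R 4.3.3 (TMM scaling, filterByExpr with a minimum count of 10, glmQLFit and glmQLFTest, Benjamini-Hochberg adjustment over all genes tested, FDR 0.01). SLIRP siRNA was compared with NS over 16 libraries and DHT with vehicle over the 8 NS libraries, both without covariates, and other comparisons were contrasts of a 4-group model. Alternatives were DESeq2 1.42.0, limma 3.58.1, other scalings and filters, treatment as a covariate, a replicate block, an FDR of 0.05 and leaving out replicates. Using only replicates 1 and 2, only 3 and 4, leaving out NS-Veh replicates 1 and 2, or replicates 1 and 2 against 3 and 4 as a covariate was chosen after seeing the data.

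The members and lists were chosen with earlier results of these data known. Genes named were the 10 members, SLIRP, up to 4 called genes of each list with the largest change over 16 libraries, and the 3 genes most correlated with each called member. The markers and any other gene named were chosen outside this rule, with their values known. Libraries of 1 group differed by more than sampling noise. By the study's methods, 2 experiments contributed 2 biological replicates each, and which numbers belong together is not said, so p-values measure the spread between these libraries. Sequences are RefSeq's (GRCh38.p14), placed on hg19 by exact match.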

Additional observations from a re-analysis of the deposited data

Results flagged for a closer look

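NFKBIA in NS-Veh replicate 2 stood at 37.1 CPM, on 16 counts, while the other 3 libraries of that group lay between 52.2 and 54.0 CPM. The gap to its nearest neighbour was 0.891 of the range of the group, above Dixon's critical value of 0.829 for 4 libraries. This was 1 of 40 groups examined, and chance flags about 1 group in 20. The library was the smallest of the 16, with 436353 counts. Leaving out replicate 2 moved the log2 fold change of NFKBIA in SLIRP-Veh over NS-Veh from 0.13 to 0.07, neither of them past the test.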

How the results depend on the processing

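Of 599 recomputed log2 fold changes of the members, 553 kept their direction and their side of the FDR, 12 (all of BIRC2) kept the direction but no longer passed, 0 newly passed and 34 changed sign, none of which had passed an FDR of 0.01 in either analysis. The number of members called for SLIRP siRNA over 16 libraries fell from 1 to 0 with only replicates 1 and 2. In vehicle it was 0 with DESeq2, with limma at either pseudocount and without NS-Veh replicates 1 and 2, and 0 in each of the 4 analyses that leave out a replicate number. In DHT it was 0 to 1 over those analyses. The analyses without libraries had fewer samples, and for the other tools the cause was not tested.

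The values that changed sign were at most 0.26 in size in the reported analysis. Without a replicate number, the log2 fold change over 16 libraries was -0.079 to 0.014 for NFKB1 and -0.12 to 0.0084 for RELA. In vehicle it was -0.011 to 0.37 for NFKB2. In DHT it was -0.13 to 0.068 for NFKB1, -0.073 to 0.041 for RELA and -0.054 to 0.14 for NFKBIA. For DHT over vehicle in NS cells it was -0.14 to 0.026 for NFKB1, -0.0795 to 0.17 for NFKB2, -0.11 to 0.14 for NFKBIA and -0.20 to 0.018 for BIRC2, and in SLIRP siRNA cells -0.078 to 0.026 for NFKB1 and -0.14 to 0.0297 for NFKB2. The difference in DHT response was -0.11 to 0.14 for NFKB1, -0.31 to 0.10 for NFKB2, -0.022 to 0.10 for RELA, -0.19 to 0.072 for NFKBIA, -0.0901 to 0.0324 for BIRC2 and -0.043 to 0.51 for BIRC3. With only replicates 1 and 2, NFKB1 was at 0.0075 and RELA at 0.081, and with only replicates 3 and 4 NFKBIB was at -0.0196. Without NS-Veh replicates 1 and 2, NFKB1 was at 0.025 over the remaining libraries, 0.093 in vehicle and 0.072 for DHT in NS cells, where NFKBIA was at -0.031. DESeq2 gave NFKB1 0.0031 in DHT, and limma gave RELA a difference in DHT response of -0.055 with either pseudocount.

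Same-numbered libraries of different groups had correlations of their deviations between -0.0374 and 0.201 over 6965 genes, and 7 of 24 pairs were above 0.1. Out of 4 candidate libraries each, 10 of 24 correlated best with their own number, most often for replicate 4. This does not settle whether the numbers pair the libraries, and the reported analyses took them as unpaired. With the replicate block the count of members called stayed at 1 over 16 libraries, 1 in vehicle and 1 in DHT, and at 0 in the other comparisons. In both NS groups libraries 1 and 2, and libraries 3 and 4, were closer to each other than the cross pairs. The chi-square per degree of freedom of their counts was 1.22 to 1.38, against 1.45 to 1.91. In SLIRP-1nM DHT libraries 1 and 2 gave 1.53, 3 and 4 gave 1.78, and the cross pairs 1.78 to 2.37. In SLIRP-Veh libraries 3 and 4 (1.21) were the closest, but libraries 1 and 3 (1.53) were closer than 1 and 2 (1.95). With replicates 1 and 2 against 3 and 4 as a covariate the counts of members called were again 1, 1, 1 and 0. Among the lists over 16 libraries, the upstream genes that fell numbered 5 in place of 11 with only replicates 1 and 2 or only 3 and 4, the negative regulators that rose 0 in place of 3 with only replicates 1 and 2, the RNA sensing genes that fell 3 in place of 1 with limma, the block or the covariate for replicates 1 and 2 against 3 and 4, and the interferon-stimulated genes that fell 8 in place of 24 with at least 10 counts in every library, where 9 were tested. With at least 10 counts in every library, NFKBIB and BIRC3 could not be tested. The total counts limit RELB, NFKBIE, TNFAIP3 and BIRC3 most, and BIRC3 was under the filter over 16 libraries without replicate 1 and without replicate 4.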
